A study of Equus caballus with 14 samples.

Results

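CCL2, CCL5 and CCL11, ligands of the CC chemokine family, and CCR2, the receptor of CCL2, were measured in mediastinal lymph nodes of horses. Their probes were chosen by the accession printed on the array, which had to be the horse RefSeq transcript of the gene. This gave 15 of 43603 probes, for 4 of the 599 genes that could be named on the array. CCL2 (NM_001081931) had 6 probes, CCL5 (NM_001081863) had 2, CCL11 (NM_001081871) had 5 and CCR2 (NM_001097606) had 2, so no gene lacked a probe. The nodes came from 7 RAO-affected horses and 7 control horses, all of mixed breed, and RNA of 1 horse, labelled with Cy3, was hybridized to each of 14 arrays. RAO, recurrent airway obstruction or heaves, is an asthma-like disease that stabling with dusty hay brings on in susceptible horses. Per the study's methods both groups were stabled in that environment before euthanasia, so the control horses had been exposed and stayed healthy. The same methods give the RAO-affected horses a higher mean age, which cannot be told apart from the disease here.

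Chemokines are small secreted proteins that draw leukocytes along a gradient by binding G-protein coupled receptors. CCL2 (MCP-1) recruits monocytes through CCR2, CCL5 (RANTES) recruits T cells, monocytes and eosinophils through several CC receptors, and CCL11 (eotaxin-1) recruits eosinophils through CCR3. In a node that drains an inflamed lung they come from macrophages, T cells, endothelium and stromal cells, while CCR2 is carried mainly by monocytes. In the horse gene table CCL13, CCL8 and CCL11 are followed by a predicted gene and CCL2, CCL5 stands beside CCL16, and CCR2 is followed by CCR3 and CCR1.

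Between 32696 and 39947 probes per array were well above background, and 1439 to 2613 were saturated. Horses of both groups shared each of the 4 slides. Slide 1, which carried RAO-affected horse 4 with control horses 3 and 5, stood apart, with a median background intensity of 45.5 to 46 against 55.5 to 97 on the other slides and correlations of 0.898 to 0.945 with their arrays. Each piece of node was bulk tissue, in which fewer cells of a type and less RNA per cell cannot be told apart. CD2, a T cell marker, was detected above background in each of the 14 horses. No listed marker of B cells, eosinophils, neutrophils or lymph node follicles could be named on the array with the tables used here, so the tissue label was checked only in part.

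For none of the 4 genes did the difference between RAO-affected and control horses exceed the spread between horses. The filter kept probes well above background in 4 or more horses, and all 15 passed it. Of these, 0 of 15 passed an adjusted p of 0.05 in limma, beside 0.0% of the 38674 probes tested. At an unadjusted p under 0.05 the count was also 0 of 15, where 5.63% of all probes passed, and so it was with a 2-fold limit added (1.47% of all probes). It was 0 of 15 again with slide as a block (11.9% of all probes) and by the methods' t-test run unpaired (5.26%). Differences in log2 signal, RAO-affected minus control, ranged from -0.80 at a CCL11 probe to 0.28 at a CCL2 probe, with a median of 0.03 beside -0.03 over all probes tested. The difference was above 0 at 8 of the 15 probes, namely those of CCL2 and CCR2, and at 43.8% of all probes. The brightest probe of each gene represents it below, and levels of different probes were not set against each other.

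**Figure D1:**
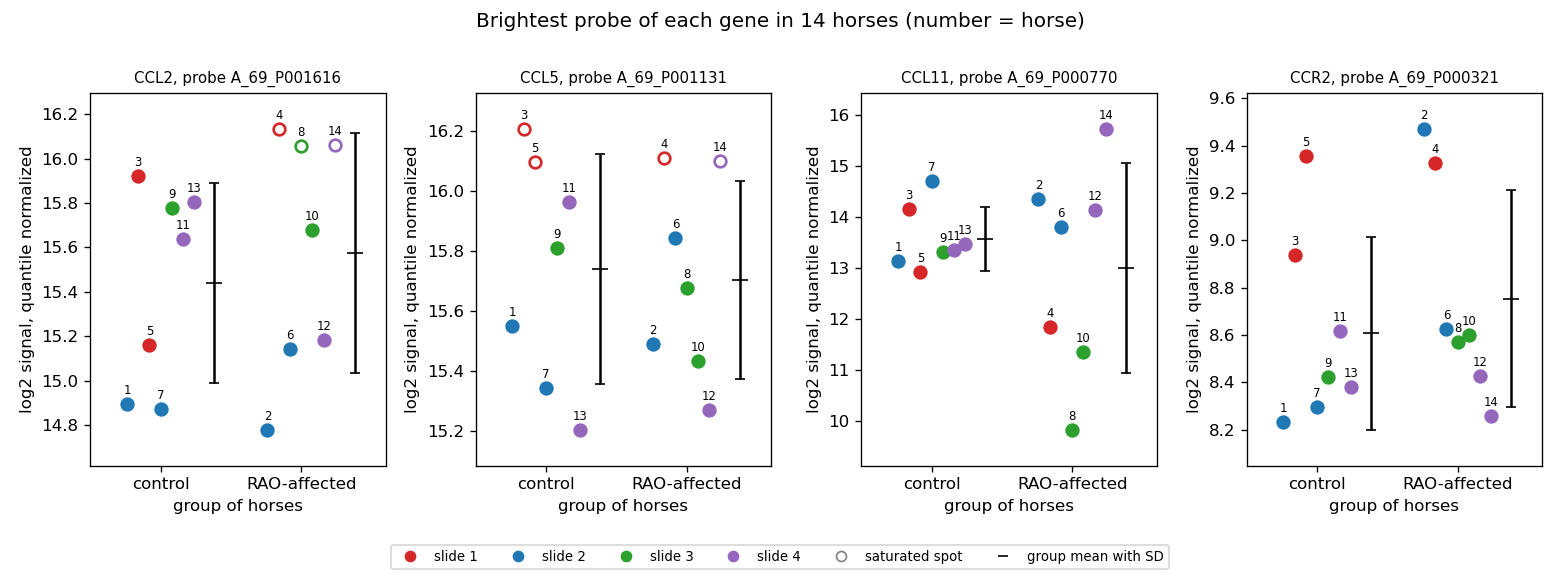
Log2 signal after quantile normalization (vertical axis) of the brightest probe of each gene in 7 control and 7 RAO-affected horses, with 1 point for each horse, its number above it, its slide as the colour and an open point for a saturated spot. Bars are the group mean ± SD. The groups overlap for every gene, and CCL11 spans 9.84 to 15.72 in RAO-affected horses against 12.93 to 14.70 in control horses.

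CCL2, the monocyte attractant, was near the top of the scanner's range in both groups. At probe A_69_P001616 its log2 signal was 14.87 at the lowest, 15.64 at the median and 15.92 at the highest control horse. In RAO-affected horses these values were 14.78, 15.68 and 16.13. RAO-affected horses 4, 8 and 14 lay above every control horse and RAO-affected horse 2 lay below every one, so the groups overlapped on both sides. RAO-affected horses averaged 15.58 ± 0.54 and control horses 15.44 ± 0.45 (mean ± SD, n = 7 each), which is a log2 difference of 0.14 (SE 0.26, 95% interval -0.42 to 0.69). This was smaller than the spread between horses (limma adjusted p = 0.987, two-sided exact permutation p = 0.601). The spots of the same 3 RAO-affected horses were saturated at this probe and no control spot was, so their CCL2 signals are lower bounds. The difference may thus be understated, and its interval is not a limit on the change in CCL2 RNA.

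The other 5 CCL2 probes followed A_69_P001616 closely, with correlations among the 6 probes of 0.911 to 0.998 over horses. Their differences ran from 0.10 to 0.28. The latter belonged to A_69_P006396, which was saturated in RAO-affected horses 4 and 14 only. There the log2 signal was 13.96, 14.69 and 15.26 at the lowest, median and highest control horse and 14.10, 14.71 and 15.95 in RAO-affected horses. The group medians thus nearly coincided, and the difference had a 95% interval of -0.39 to 0.96 (limma adjusted p = 0.962). Saturation limits this interval in the same way. Within slides the CCL2 difference at A_69_P001616 was 0.59 on slide 1, 0.08 on slide 2, 0.09 on slide 3 and -0.10 on slide 4. At A_69_P006396 it was 1.16, 0.17, -0.11 and 0.08. The slide 1 values rest on RAO-affected horse 4 alone, which was saturated at both probes. With slide as a block the difference at A_69_P001616 was 0.13 (SE 0.18, limma adjusted p = 0.792).

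CCL5, the attractant of T cells and eosinophils, showed the smallest difference of the 4 brightest probes. At probe A_69_P001131 the log2 signal was 15.20, 15.81 and 16.21 at the lowest, median and highest control horse. In RAO-affected horses it was 15.27, 15.68 and 16.11. Every RAO-affected horse lay inside the range of the control horses. The means were 15.70 ± 0.33 (SD, n = 7) and 15.74 ± 0.38 (SD, n = 7), a difference of -0.04 (SE 0.19, 95% interval -0.45 to 0.37, limma adjusted p = 0.990, exact permutation p = 0.846). The spots of 2 control and 2 RAO-affected horses were saturated at this probe, so the interval is not a limit on the change in CCL5 RNA.

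The other CCL5 probe, A_69_P006636, correlated with the first at 0.964 over horses and gave a difference of -0.13 (95% interval -0.74 to 0.48, limma adjusted p = 0.987). The highest CCL5 signals came from slide 1 in both groups. On that slide A_69_P001131 averaged 16.14 over control horses 3 and 5 and RAO-affected horse 4, against 15.61 on the other slides, and those 3 horses were saturated at both probes. RAO-affected horse 14 was saturated at A_69_P001131 as well. Within slides the difference at this probe was -0.04, 0.22, -0.26 and 0.10 on slides 1 to 4, with no common direction. With slide as a block the sign turned, to 0.04 (SE 0.16, limma adjusted p = 0.949).

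**Figure D2:**
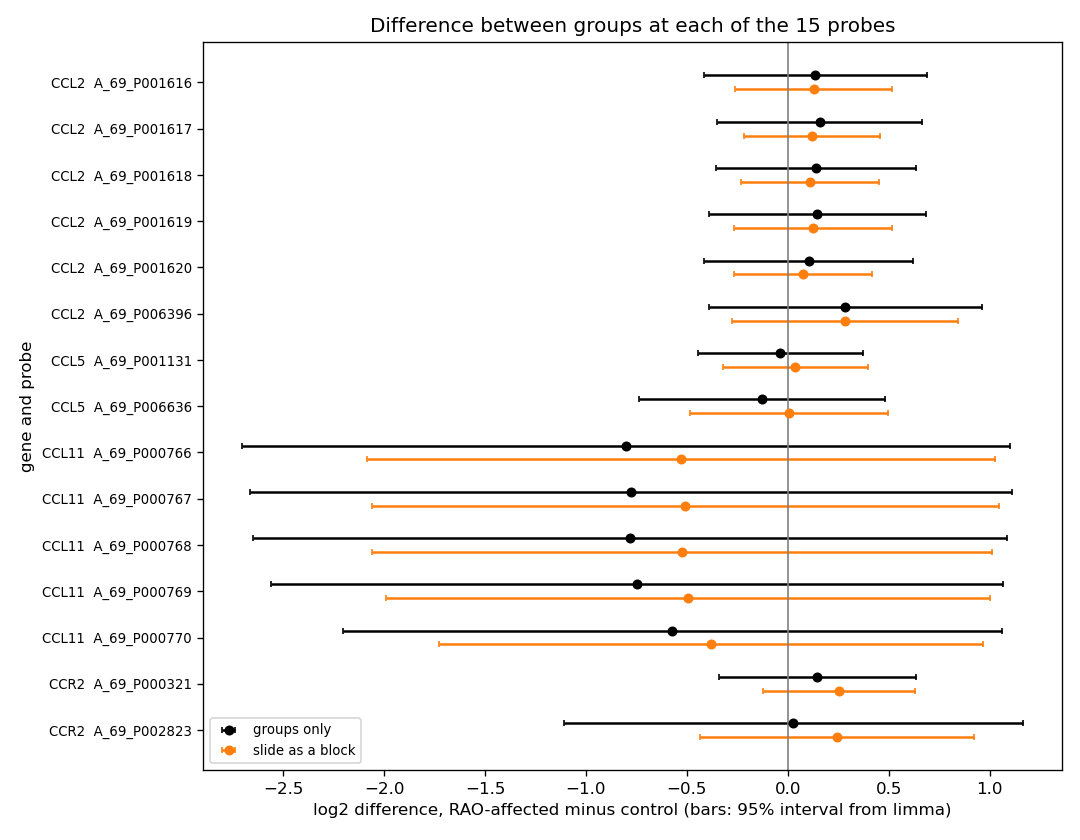
Log2 difference, RAO-affected minus control (horizontal axis), at each of the 15 probes (vertical axis), with 95% intervals from limma, for the comparison of groups alone (black) and with slide as a block (orange). Every interval includes 0, and those of the 5 CCL11 probes are the widest, reaching from -2.70 to 1.11.

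CCL11, the eosinophil attractant, was the member whose signal varied most between horses. At probe A_69_P000770 the log2 signal was 12.93, 13.36 and 14.70 at the lowest, median and highest control horse. In RAO-affected horses it was 9.84, 13.80 and 15.72. RAO-affected horses 4 (11.84), 8 (9.84) and 10 (11.36) lay below every control horse, horse 14 (15.72) lay above every one, and horses 2, 6 and 12 (13.80 to 14.36) lay within the control range. The mean was lower in RAO-affected horses (13.01 ± 2.05 against 13.58 ± 0.63, SD, n = 7 each) while the median was higher. The difference of means was -0.57 (SE 0.76, 95% interval -2.20 to 1.06, limma adjusted p = 0.975, exact permutation p = 0.499). It was -0.04 without RAO-affected horse 8 and -1.02 without RAO-affected horse 14. The interval, 0.217-fold to 2.08-fold, was the widest of the 4 brightest probes.

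CCL11 values spanned more over the RAO-affected horses than over the control horses at all 5 probes. From the lowest to the highest horse the signal spanned 58.9-fold in RAO-affected and 3.43-fold in control horses at A_69_P000770, and 107-fold to 139-fold against 3.17-fold to 3.50-fold at the other 4 probes. The SD over RAO-affected horses was 3.28 to 3.65 times that over control horses. Over all probes tested the median of this ratio was 1.05, and 2.44% of them reached 3. With slide means subtracted it was 0.97 at A_69_P000770. Those means are taken over horses of both groups, so subtracting them carries deviations of RAO-affected horses into the control values. The 0.97 is therefore not a measure of the spread with slide accounted for. Nor does the ratio of 3.28 to 3.65 account for slide, and whether it holds within slides was not tested. The SD ratio was looked at after the values were seen, and it is given as a description without a test.

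Noise between spots was small beside this spread. Probe A_69_P000766 was printed in 5 spots on every array, and the SD of the log2 signal between spots was 0.03 to 0.11 within an array, against 0.66 between control horses and 2.41 between RAO-affected horses. Repeat spots do not cover error from labelling, hybridization or slide. The 5 probes, which share the same arrays, correlated at 0.993 to 1.00 with each other over horses, and their differences ran from -0.80 to -0.57 (limma adjusted p from 0.962 to 0.975). Every horse was well above background at all 5, and none was saturated.

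**Figure D3:**
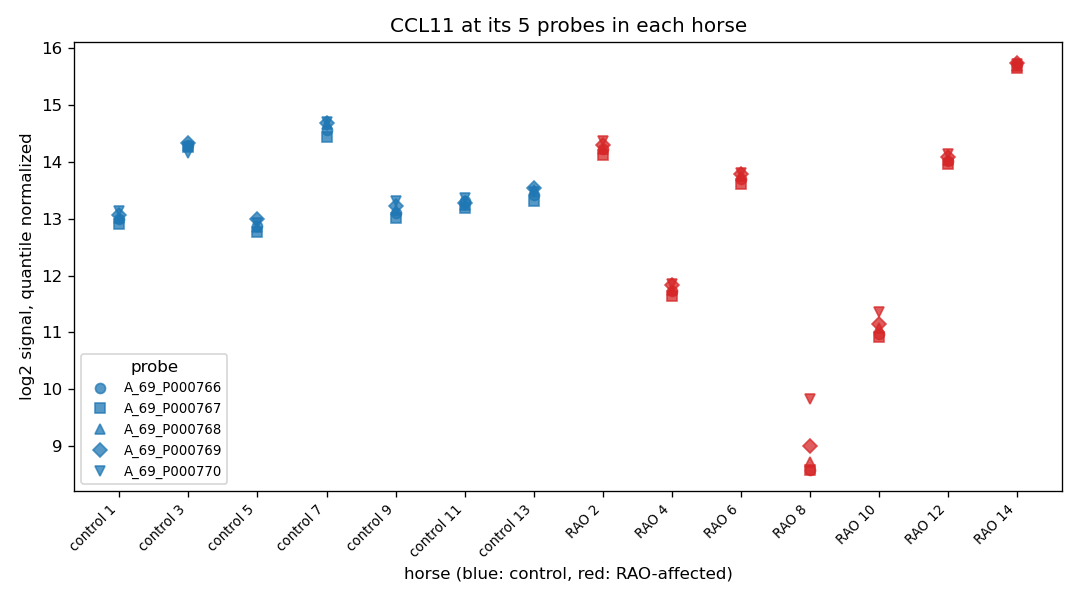
Log2 signal of CCL11 after quantile normalization (vertical axis) at its 5 probes (symbols) in each of 7 control horses (blue) and 7 RAO-affected horses (red). The probes fall together in each horse, and RAO-affected horse 8 is lowest (8.58 to 9.84) and horse 14 highest (15.65 to 15.74).

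The CCL11 signals of RAO-affected horses were low on slides 1 and 3 and higher on slides 2 and 4. On slide 2 horses 2 and 6 measured 14.36 and 13.80 at A_69_P000770, and on slide 4 horses 12 and 14 measured 14.14 and 15.72. On slide 3 horses 8 and 10 measured 9.84 and 11.36, and on slide 1 horse 4 measured 11.84. The control horses of those slides did not follow this order, with 13.14 and 14.70 on slide 2, 13.31 on slide 3, 13.36 and 13.47 on slide 4 and 14.15 and 12.93 on slide 1. The CCL11 difference was therefore -1.69 on slide 1, 0.16 on slide 2, -2.72 on slide 3 and 1.52 on slide 4. Whether the difference varied between slides was not tested. With slide as a block it was -0.38 (SE 0.61, limma adjusted p = 0.827). At A_69_P000770 horses of the same group on the same slide lay about as far apart in RAO-affected as in control horses. The wide span of the RAO-affected horses thus lay mainly between slides, and the reason was not tested.

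**Figure D4:**
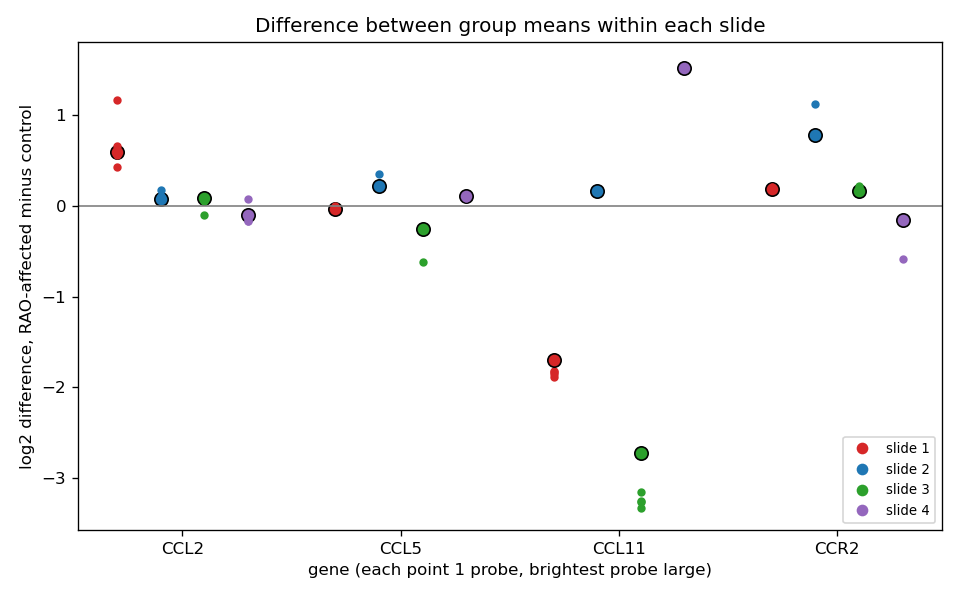
Log2 difference between the mean of the RAO-affected horses and the mean of the control horses (vertical axis) within each of the 4 slides (colours) for each gene (horizontal axis), with 1 point for each probe and the brightest probe drawn large. CCL11 runs from -2.72 on slide 3 to 1.52 on slide 4 at its brightest probe, while the brightest CCL2, CCL5 and CCR2 probes stay between -0.26 and 0.78.

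CCR2, the receptor through which CCL2 acts on monocytes, overlapped almost wholly between the groups. At probe A_69_P000321 the log2 signal was 8.23, 8.42 and 9.36 at the lowest, median and highest control horse. In RAO-affected horses it was 8.26, 8.60 and 9.47. RAO-affected horse 2 alone lay above the control range, and none lay below it. The means were 8.75 ± 0.46 (SD, n = 7) and 8.61 ± 0.41 (SD, n = 7), a difference of 0.15 (SE 0.23, 95% interval -0.34 to 0.63, 1.11-fold, limma adjusted p = 0.985, exact permutation p = 0.548). Every horse passed the background limit at this probe, and none was saturated.

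The 3 horses of slide 1 had high CCR2 signals whatever their group. Control horses 3 and 5 measured 8.94 and 9.36 and RAO-affected horse 4 measured 9.33, and the mean of slide 1 was 9.21 against 8.54 on the other slides. RAO-affected horse 2, at 9.47 on slide 2, was the other high value. Within slides the difference was 0.18, 0.78, 0.16 and -0.16 on slides 1 to 4. With slide as a block it was 0.26 (SE 0.17, 95% interval -0.12 to 0.63, limma adjusted p = 0.543), the lowest adjusted p of the 15 probes in that fit.

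The other CCR2 probe, A_69_P002823, was dim. It was well above background in 4 control and 2 RAO-affected horses, and its log2 signal was 6.81 to 7.11 on slide 1 and 3.51 to 6.08 on the other slides. Its difference was 0.03 (SE 0.53, 95% interval -1.11 to 1.17, limma adjusted p = 0.997). It correlated with A_69_P000321 at 0.531 over horses, the lowest agreement between probes of any member gene.

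Slide shifted some members in both groups. In a fit of slide and group the slide term passed an adjusted p of 0.05 at 45.7% of the probes in which it was tested. It passed at 5 of the 6 CCL2 probes (limma adjusted p from 0.0161 to 0.0341) and at the dim CCR2 probe A_69_P002823 (limma adjusted p = 0.00597). For CCL2 slide 1 did not stand apart, at 15.16 to 16.13 at A_69_P001616 against 14.78 to 16.06 on the other slides. Slide 2 held its lowest values, from 14.78 to 15.14 at A_69_P001616 in control horses 1 and 7 and RAO-affected horses 2 and 6. The 2 CCL5 probes had adjusted p of 0.170 and 0.0743 for the slide term, those of CCL11 0.0757 to 0.0814 and CCR2 probe A_69_P000321 had 0.0572.

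No relation between CCL2 and its receptor CCR2 was detected over the 14 horses. Pearson's r was -0.06 (permutation p = 0.847) and Spearman's rho -0.05 (permutation p = 0.856), and after adjustment over the 6 pairs of member genes p was 0.920 for r. The 2 horses with the highest CCR2 signals were RAO-affected horse 2, which had the lowest CCL2 signal (14.78), and control horse 5, whose CCL2 signal was 15.16. RAO-affected horse 4, whose CCL2 spot was saturated, came next for CCR2 at 9.33. Without control horse 7 and RAO-affected horse 2, the horses farthest from the median of CCL2, r was 0.13 (permutation p = 0.682).

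Within the groups r between CCL2 and CCR2 was 0.17 in control horses (exact permutation p = 0.722) and -0.27 in RAO-affected horses (exact permutation p = 0.514), with n = 7 each. With slide means removed it was -0.23 (permutation within slides, p = 0.321), and with slide and group removed -0.37 (p = 0.167). Without slide 1 it was -0.32 (permutation p = 0.387). No slide held 6 horses, so r was not computed within a slide. Over the 12 pairs of a CCL2 with a CCR2 probe, r was -0.17 to -0.06 with A_69_P000321 and 0.36 to 0.51 with A_69_P002823, the probe that followed slide 1 and was below the background limit in 8 horses.

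**Figure D5:**
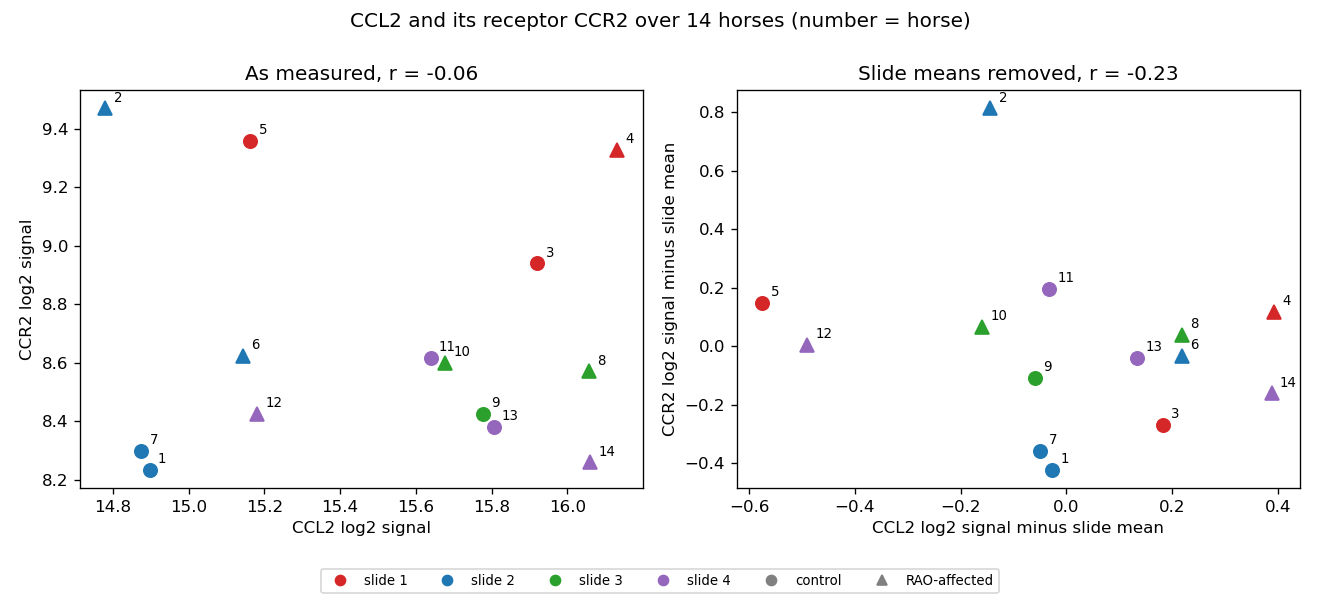
CCR2 (vertical axis) against CCL2 (horizontal axis) as log2 signal in 14 horses, as measured (left) and with each slide's mean removed (right), with circles for control and triangles for RAO-affected horses, colours for slides and the horse's number beside each point. The points show no common slope, with r of -0.06 as measured and -0.23 with slide means removed.

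None of the other 5 pairs of member genes passed either. CCL2 with CCL5 had the highest coefficient, r = 0.45 (permutation p = 0.108, rho = 0.46) and an adjusted p of 0.444 over the 6 pairs, and r was again 0.45 with slide means removed (p = 0.167). Both probes were saturated in RAO-affected horses 4 and 14, and 1 of them in some other horses, so this r is taken partly over capped values. Saturated spots of CCL2 and CCL5 also enter the coefficients of their other pairs. CCL5 with CCR2 gave r = 0.40 (permutation p = 0.154) pooled and 0.78 in the control horses (exact permutation p = 0.0337, not adjusted). Over all 14 horses the pooled coefficient was -0.04 with slide means removed, and it was -0.05 without slide 1. CCL11 gave r of -0.35 with CCL2, 0.03 with CCL5 and -0.17 with CCR2 (permutation p from 0.222 to 0.920).

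Among the 526 genes that could be named and passed the filter, those with the pattern most like each member were found by Pearson's r over the 14 horses, which share slides. For CCL2 they were OAS2 (r = 0.82), an interferon-induced enzyme, CSF2 (0.72), the cytokine GM-CSF, the chemokine CCL8 (0.69), CYP11A1 (0.68) and IFI27 (0.64). With slide means removed OAS2 kept 0.69 and CYP11A1 0.65, while CSF2 had 0.43, CCL8 0.48 and IFI27 0.01. For CCL5 they were TAGLN (0.81), an actin-binding protein of smooth muscle, the chemokine CCL3 (0.79), RPLP2 (0.78), GJB1 (0.75) and FLYWCH2 (0.74). With slide means removed TAGLN kept 0.75, CCL3 and RPLP2 0.62 each, and GJB1 and FLYWCH2 0.50 each.

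For CCL11 the nearest pattern was that of ALB, serum albumin, at r = 0.83 (0.78 with slide means removed), ahead of OASL (0.66), PGFS (0.65), FIBIN (0.64) and BDNF (0.63). For CCR2 they were TMEM234 (0.79), RELA (0.78), MRPL53 (0.77), SMPD5 (0.76) and LILRA (0.76). RELA, the p65 subunit of NF-kB, was the one whose likeness to CCR2 was higher with slide means removed, at 0.84. These coefficients are descriptions, and the genes were picked as the highest of 526.

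Of 21 other CC chemokines on the list, 2 could be named on the array, and neither passed. CCL8 (MCP-2), a monocyte attractant encoded next to CCL11, averaged 15.29 ± 0.67 over RAO-affected horses and 14.67 ± 0.47 over control horses (log2 signal, mean ± SD, n = 7 each). That difference of 0.63 (SE 0.30, limma adjusted p = 0.892, exact permutation p = 0.0688) was above that of every member probe, and its 3 probes gave 0.26 to 0.69. Its unadjusted limma p was 0.0541, and 0.0380 with slide as a block (adjusted p = 0.403). CCL3, a macrophage inflammatory protein, differed by 0.31 (limma adjusted p = 0.960). The CC chemokines of this cluster are alike in sequence, and cross-hybridization between their probes was not tested.

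Of 13 genes listed as inducers of CC chemokines, 8 could be named on the array and none passed after adjustment, 5 with a difference above 0. IL4, which with IL-13 induces CCL11 in stromal cells, was the 1 gene at an unadjusted p under 0.05. Its difference was -0.98 (limma adjusted p = 0.873), where 5.63% of all probes passed the unadjusted limit. The IL4 probe was well above background in 5 RAO-affected and 7 control horses, and the 17 probes of IL4 gave differences of -1.76 to -0.59. IL1B, an inducer of CCL2, differed by 0.92 (limma adjusted p = 0.901), TNF by -0.12, IL6 by 0.35, IL1A by 0.64, IFNG by -0.25, IL17A by 0.01 and RELA by 0.13. The IL17A probe passed the background limit in 3 RAO-affected and 4 control horses and that of IL1A in 2 of each group, so both lay near background. RAO-affected horse 8, which had the lowest CCL11 signal, had the highest IL1B (14.37) and IL6 (14.22) signals of its group. Its CCL2 signal was among the 3 saturated ones.

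Some markers of cells that make or answer these chemokines were at an unadjusted p under 0.05, as 5.63% of all probes tested were. Of 3 monocyte and macrophage markers that could be named, 2 were higher in RAO-affected horses at an unadjusted p under 0.05 and none after adjustment. CD163, a scavenger receptor of macrophages, differed by 2.61 and CD14, a coreceptor for endotoxin, by 1.11 (limma adjusted p = 0.873 for each), while CD68 differed by 0.04. For CD163 the unadjusted limma p was 6.92e-05. Its groups did not overlap, at 11.11 to 14.25 in RAO-affected and 8.82 to 11.08 in control horses (exact permutation p = 0.000583). Of 3 endothelial markers, SELP (1.64) and CAV1 (1.21) were higher at an unadjusted p under 0.05 and PECAM1 differed by 0.45 without reaching it. KIR3DL, a killer cell receptor, differed by -0.88 at an unadjusted p under 0.05, and the limma adjusted p of SELP, CAV1 and KIR3DL was 0.873. With slide as a block 11.9% of all probes passed the unadjusted limit. CAV1 (limma adjusted p = 0.424) and KIR3DL (limma adjusted p = 0.431) no longer passed it in that fit. CD2 differed by -0.43, the stromal gene DCN by 0.19, the mast cell genes TPSB2 and FCER1A by 0.77 and 1.04 and SFTPA1, of lung epithelium, by 0.54, none at an unadjusted p under 0.05. The DCN probe was saturated in 5 horses, that of CD68 in 2 and that of CD14 in 1, so their signals there are lower bounds. Over horses CD163 correlated with CCR2 at 0.38 and with CCL2 at 0.16, CD14 at 0.36 and 0.35 and CD68 at 0.66 and 0.37. For the T cell marker CD2 these coefficients were 0.51 and 0.36. Slide means were not removed from them. The part of these cells in the signals of CCL2, CCL5, CCL11 and CCR2 was not tested.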

How the data were processed

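Mediastinal lymph nodes of 7 RAO-affected and 7 control horses were each measured on a 1-colour Agilent array. The authors deposited the scanner output with an intensity per spot, background-subtracted by Feature Extraction (10.5.1.1 per the file headers, 9.1 per the submitters' processing notes) without scaling between arrays. A deposited value table of ratios (column medians from 0.973 to 1.02) divides each quantile-normalized signal by the median of its probe, and its log2 values correlated at 0.999 or above with the intensities treated in that way. No genome build or probe sequence was used here.

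Control spots (1417 per array) and 19 to 177 outlier spots per array were left out, spots of a probe were averaged, and log2 intensities were quantile normalized. The horse RefSeq gene table gave names to 1231 probes, and the study's table of primers to 20 more. limma's lmFit and eBayes were run two-sided on probes well above background in 4 or more horses, with p adjusted after Benjamini-Hochberg across all of them. The methods name a paired t-test, but no label pairs the horses, so every fit was unpaired, and replicates are separate horses. Single values had an exact permutation test over 3432 splits and relations 100000 permutations, exact within groups of 7. The number of arrays limits the precision. Genes of several probes were represented by the brightest.

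Alternatives were 75th percentile scaling, normexp on median spot signals with offset 50 (mean signals were not in the files), the ratio table, no filter, filters at 7 and 14 arrays, slide as a fixed or random block, leaving out slide 1 or each horse in turn, array weights, the methods' t-test and the mean over a gene's probes. Slide and group were also removed from the relations. The alternatives for the spread of CCL11 were chosen after seeing the data. The members, gene lists and tests were chosen with earlier results of these data known. Named genes were the members, the listed CC chemokines, inducers and cell type markers, and the 5 genes most like each member, and results for the listed CC receptors are not reported here. The fit was tested on simulated data with known changes. Software was Python 3.11.15 with scipy 1.17.1, numpy 2.4.6, matplotlib 3.10.9 and pandas 2.3.3, and R 4.3.3 with limma 3.58.1 and data.table (1.17.8).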

Additional observations from a re-analysis of the deposited data

Results flagged for a closer look

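A single horse was taken to stand far from its group of 7 when its gap to the nearest horse, divided by the range of the group, was above Dixon's critical value for 7 samples. Of 52 groups tested, those of the 15 member probes and of the other listed genes of the CC family and of inducers, 5 held such a horse. Chance alone gives about 1 in 20 for normal values. The groups are not independent, since probes of a gene follow each other over the same horses, so the count cannot be judged against that share. None of the 5 was at a member probe. RAO-affected horse 8 stood high for IL1B (ratio 0.679, log2 signal 14.37 against 10.16 to 11.51 in the others) and for IL6 (ratio 0.669, 14.22 against 9.57 to 11.11). RAO-affected horse 4 stood high for TNF (ratio 0.586, 10.90 against 9.54 to 10.10). Control horse 9 stood high for IFNG (ratio 0.692, 9.76 against 9.03 to 9.26) and for IL1A (ratio 0.627, 6.01 against 3.23 to 4.27), whose probe passed the background limit in 2 control and 2 RAO-affected horses.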

How the results depend on the processing

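No member probe passed an unadjusted p of 0.05 under any of 25 alternatives. Over its 26 alternatives CCL2 kept a positive difference (0.00 to 0.27) and CCR2 too (0.03 to 0.27), CCL11 kept a negative one (-1.02 to -0.04), and the lowest unadjusted p was 0.290, 0.162 and 0.158. The CCL5 difference changed sign with 75th percentile scaling (0.066), without slide 1 (0.060), and with slide as a fixed (0.036) or random block (0.018), at p of 0.507 or more in all its alternatives. Leaving out 1 horse at a time gave 0.04 to 0.27 for CCL2, -0.13 to 0.041 for CCL5 (5 of 14 with the sign turned), -1.02 to -0.04 for CCL11 and 0.03 to 0.27 for CCR2. The r of CCL2 with CCR2 turned to 0.31 with the mean over all probes of each gene, and to 0.04 to 0.23 in 3 of the 14 fits without 1 horse (-0.26 to 0.23 in all), namely without control horse 5, RAO-affected horse 2 or RAO-affected horse 14. The cause of these changes was not tested. The SD of CCL11 over RAO-affected horses divided by that over control horses, 3.28, was 2.63 to 4.91 without 1 horse at a time. It was 0.97 after subtracting slide means. Those are taken over horses of both groups and so carry deviations of RAO-affected horses into the control values. Whether the wider spread holds within slides was not tested.

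Over all probes, 569 passed 2-fold at an unadjusted p under 0.05. The count was 268 with normexp, 1111 without slide 1 and 291 with the filter at 14 arrays, and 386 to 1117 without 1 horse, the highest without RAO-affected horse 4. No paired analysis was possible because control and RAO-affected horses share no replicate number and no label pairs them. Among the members saturation limits CCL2 and CCL5, whose brightest spots give lower bounds, and nearness to background limits the dim CCR2 probe. Of the other listed genes DCN, CD68, CD14 and CCL8 had saturated spots too.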
